A study of Mus musculus with 24 samples.

Results

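The 10 genes described here mark T cells and cytotoxic lymphocytes: Cd3e, Cd3d, Cd3g, Cd4, Cd8a, Cd8b1, Gzma, Gzmb, Prf1 and Nkg7. They were chosen by symbol, each symbol matching 1 Ensembl identifier of GENCODE release M21, and make up 10 of the 54532 genes counted in each library. Tissue of Trex1-KO mice was sampled at 4 sites, heart, stomach, muscle and tongue, with 3 untreated and 3 SN-011 libraries per tissue and 24 in all. TREX1 is a DNA exonuclease whose loss leaves DNA in the cytosol and activates the cGAS-STING pathway, and SN-011 is a small-molecule antagonist of STING. Every mouse carried the knockout, so no library gives the level in a wild-type tissue. The labels give SN-011 at 5 mg/kg, 3 doses per week for 4 weeks, and call the other mice untreated, whereas the methods describe daily doses of 10 mg/kg for 2 weeks in 1-month-old mice and a vehicle of 1% Tween 80 in PBS. Nothing in the labels says which tissues came from the same mouse, and the RNA was that of whole tissue. The comparisons ask how much lymphocyte RNA each tissue held and whether SN-011 altered it.

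A T cell recognizes antigen through its T cell receptor, which signals only together with the CD3 chains encoded by Cd3e, Cd3d and Cd3g. The co-receptor CD4 marks helper and regulatory T cells, while the CD8α and CD8β chains, from Cd8a and Cd8b1, form the co-receptor of cytotoxic T cells. Cytotoxic T cells and natural killer (NK) cells kill targets with perforin (Prf1), which forms pores, and with the serine proteases granzyme A (Gzma) and granzyme B (Gzmb), which enter through them. Nkg7 encodes a membrane protein of the cytotoxic granule. Cd4 is also transcribed in some dendritic cells and macrophages, Cd8a in a class of dendritic cells, and Gzmb in some myeloid and mast cells, so none of these 3 genes is restricted to T cells.

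The 3 CD3 genes lie side by side on chromosome 9 (GRCm38), where Cd3g at chr9:44969572-44980431 on the minus strand and Cd3d at chr9:44981786-44987339 on the plus strand face away from each other and Cd3e follows at chr9:44998740-45009627 on the minus strand. Cd8b1 at chr6:71322788-71337494 and Cd8a at chr6:71373427-71379173 are neighbours on the plus strand of chromosome 6, and Cd4 lies on the same chromosome at chr6:124864692-124888221, minus strand. The cytotoxic genes are dispersed: Gzma at chr13:113093825-113100981 (minus), Gzmb at chr14:56258838-56262260 (minus), Prf1 at chr10:61297833-61304680 (plus) and Nkg7 at chr7:43437073-43438249 (plus). Of the 10 genes only Cd3e shares exon sequence with another annotated gene, Gm48719 on the opposite strand.

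RefSeq sequence upstream of the start was at hand for 8 of the 10 genes, all but Cd4 and Cd8b1. The 250 bases before the start (GRCm38, 5′ to 3′) are shown for the CD3 cluster, whose products assemble with the T cell receptor, and for the granzymes, whose levels are compared across tissues and treatment. Capitals mark matches on either strand to 4 motifs, namely the RUNX core TGTGGT, the ETS core AGGAAG, the interferon-response core (a pair of TTTC copies separated by any 2 bases) and the TATA box TATAAA, and no matches overlap in these 5 sequences.
Cd3e, chr9:45009612-45009861, minus strand: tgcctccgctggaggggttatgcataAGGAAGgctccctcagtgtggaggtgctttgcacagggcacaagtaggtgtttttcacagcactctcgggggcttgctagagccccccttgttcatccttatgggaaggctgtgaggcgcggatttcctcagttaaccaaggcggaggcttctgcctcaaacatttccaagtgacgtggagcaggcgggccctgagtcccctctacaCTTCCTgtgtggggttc
Cd3d, chr9:44981536-44981785, plus strand: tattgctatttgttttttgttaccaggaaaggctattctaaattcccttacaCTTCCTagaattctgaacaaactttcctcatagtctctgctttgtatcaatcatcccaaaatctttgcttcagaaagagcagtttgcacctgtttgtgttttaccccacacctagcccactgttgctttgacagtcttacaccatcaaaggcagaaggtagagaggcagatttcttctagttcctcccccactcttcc
Cd3g, chr9:44980432-44980681, minus strand: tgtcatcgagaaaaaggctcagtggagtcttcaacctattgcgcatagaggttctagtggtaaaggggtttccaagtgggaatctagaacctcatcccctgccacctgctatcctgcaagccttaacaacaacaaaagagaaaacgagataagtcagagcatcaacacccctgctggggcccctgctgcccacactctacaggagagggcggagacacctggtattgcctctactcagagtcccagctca
Gzma, chr13:113100982-113101231, minus strand: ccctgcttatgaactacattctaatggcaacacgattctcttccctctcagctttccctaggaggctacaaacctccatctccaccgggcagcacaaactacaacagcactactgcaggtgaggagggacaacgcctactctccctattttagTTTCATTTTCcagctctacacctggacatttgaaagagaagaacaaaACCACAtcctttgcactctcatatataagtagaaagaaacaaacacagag
Gzmb, chr14:56262335-56262584, minus strand: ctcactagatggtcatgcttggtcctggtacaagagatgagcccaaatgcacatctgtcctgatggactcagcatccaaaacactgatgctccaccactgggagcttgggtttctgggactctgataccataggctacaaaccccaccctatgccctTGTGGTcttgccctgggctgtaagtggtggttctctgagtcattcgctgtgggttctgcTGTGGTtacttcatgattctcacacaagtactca

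The RUNX core was found in 4 of the 8 windows (Gzma, Gzmb, Prf1 and Nkg7) and in 14.0% of all 32851 windows of this length in the table. The ETS core was found in 4 of 8 (Cd3e, Cd3d, Prf1 and Nkg7) against 29.5% of all, and the interferon-response core in 1 of 8 (Gzma) against 2.98%. The letters TATAAA were found in 0 of 8 windows and in 12.4% of all. All 4 cytotoxic genes thus had the RUNX letters in this window and none of the 3 CD3 genes or Cd8a did, which describes sequence and not binding.

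Libraries held 14253416 to 18443329 counts, at which 3 counts correspond to 0.151 to 0.245 CPM, a count scaled to a common library size. Levels are given as CPM on library sizes scaled by the trimmed mean of M-values (TMM). The identity genes of each tissue were highest in that tissue. Untreated replicate 1 of every tissue had 3060 to 13811 counts of Xist, against 20 or fewer in the other 20 libraries, and 3 or fewer of the Y-linked Ddx3y, as in female tissue, against 825 to 1898 of Ddx3y in all other libraries. The SN-011 muscle replicate 2 had counts for 11546 genes against 19798 to 24264 elsewhere, and is called the sparse muscle library below. Gastric transcripts (Atp4a, Atp4b, Gkn1, Muc5ac) were highest outside stomach in untreated replicate 2 of heart, muscle and tongue, at up to 8.51%, 3.28% and 8.09% of their mean in untreated stomach, and in untreated replicate 3 of tongue (5.91%) and muscle (1.14%). Were that share whole-stomach RNA, it would supply at most 5.78%, 21.3%, 8.85%, 7.85% and 3.37% of any of the 10 genes in those libraries. All other libraries outside stomach had at most 0.786%. Of the thymocyte genes, Rag2 and Ptcra had 0 counts in all 24 libraries, and Rag1 had 1 count in each untreated tongue library. Dntt had 4, 0 and 12 counts in untreated heart and 9, 0 and 8 in SN-011 stomach. Cd1d1 and Arpp21, also on that list, were detected in every tissue.

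In untreated mice the heart had the highest mean level of all 10 genes, and muscle or stomach had the lowest. The heart exceeded the stomach in every one of the 10 genes (adjusted p 0.000195 to 0.0228, edgeR quasi-likelihood test with Benjamini-Hochberg adjustment), where 46.7% of all 18301 genes tested differed between these tissues in either direction. The CD3 chains held least firmly there, since without untreated heart replicate 3 Cd3e, Cd3d and Cd3g missed the threshold (adjusted p 0.0547 to 0.0799) and 7 of 10 genes passed, without untreated stomach replicate 2 Cd3e and Cd3g missed it and 8 passed, and without untreated stomach replicate 3 Cd3e missed it and 9 passed. Against muscle 9 of 10 genes were higher in heart (38.9% of all genes differed), and against tongue 3 of 10 (32.3% of all genes differed). Between SN-011 libraries of the same tissues these counts were 7 against stomach (Cd3e, Cd4 and Cd8b1 missing the threshold), 6 against muscle (Cd3e, Cd3g, Gzma and Prf1 missing it) and 0 against tongue. The share of all genes that differed between SN-011 libraries is not given here, so whether these lower counts are particular to the 10 genes was not tested. The SN-011 muscle group includes the sparse muscle library, which had 0 counts of Cd3e, Gzma and Prf1 and 149 of Cd3g. In bulk tissue, fewer lymphocytes and less RNA per lymphocyte cannot be told apart.

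**Figure D1:**
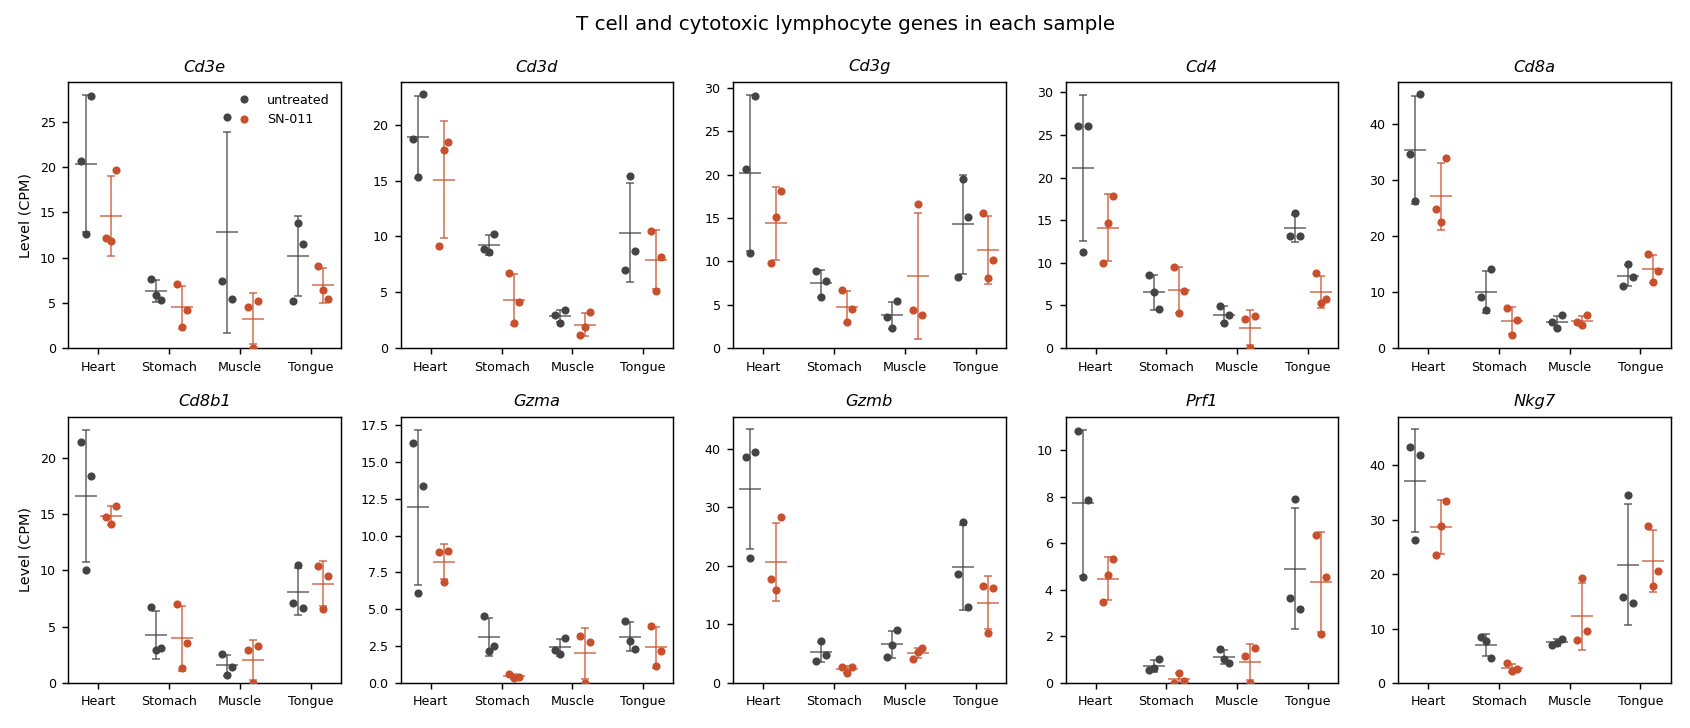
Level of each of the 10 genes in CPM (vertical axis, TMM-scaled over the 24 libraries, a separate scale per gene) in untreated and SN-011 libraries of the 4 tissues. Points are libraries, and the short bars with whiskers are the mean and the SD of 3, the lower whisker ending at 0 where the SD exceeds the mean; the heart has the highest untreated mean in every panel, and Cd3e in muscle has 1 library far above the other 2.

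The CD3 chains set the scale of the T cell signal. Cd3g in untreated libraries measured 20.6, 11 and 29.1 CPM in heart, 8.16, 19.5 and 15.1 in tongue, 8.86, 5.85 and 7.69 in stomach, and 3.58, 2.34 and 5.42 in muscle. Heart and tongue overlapped (log2 difference 0.52 ± 0.42 SE, adjusted p = 0.366), whereas muscle lay below every tongue and heart library (muscle minus tongue −1.87 ± 0.44, adjusted p = 0.00498). Cd3d followed with 18.7, 15.4 and 22.7 CPM in heart, 6.98, 15.4 and 8.67 in tongue, 8.86, 8.62 and 10.2 in stomach and 2.98, 2.25 and 3.39 in muscle. Its order was heart, tongue, stomach, muscle, the tongue and stomach not differing (adjusted p = 0.673) and the step from stomach to muscle being a log2 difference of 1.62 ± 0.32 (adjusted p = 0.00117). The difference of Cd3d between heart and tongue (0.89 ± 0.30, adjusted p = 0.0426) missed the threshold in 13 of 19 alternative analyses.

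Cd3e departed from the other CD3 chains in 1 muscle library. Its untreated levels were 20.7, 12.7 and 27.8 CPM in heart, 5.22, 13.8 and 11.5 in tongue, 7.61, 5.90 and 5.31 in stomach, and 7.41, 25.6 and 5.42 in muscle. Untreated muscle replicate 2 carried 273 counts of Cd3e against 87 and 64 in its replicates, but only 24 counts of Cd3d and 25 of Cd3g. The ratio of Cd3e to Cd3g per kb of exon was 8.75 in that library and 0.421 to 1.66 in the other libraries apart from the sparse muscle library, where it was 0. The same library had 71 counts of the opposite-strand gene Gm48719, against 0 to 19 in the other 23. With it, Cd3e did not differ between heart and muscle (0.65 ± 0.54, adjusted p = 0.378). Without it the difference was 1.64 ± 0.46 (adjusted p = 0.0219), and heart was then higher than muscle in 10 of 10 genes. A part of the overlapping gene in the Cd3e count was not tested.

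The co-receptors were ordered as Cd3d and Cd3g were. Untreated Cd8a measured 34.5, 26.2 and 45.2 CPM in heart, above every library of tongue (11.1, 14.9 and 12.7), stomach (9.07, 6.74 and 14.2) and muscle (4.599, 3.65 and 5.85). All 3 differences from heart passed the test: 1.47 ± 0.31 against tongue (adjusted p = 0.00401), 1.85 ± 0.32 against stomach (adjusted p = 0.000581) and 2.88 ± 0.33 against muscle (adjusted p = 5.77e-05). Cd8b1 had 21.4, 10.1 and 18.4 CPM in heart and 2.56, 0.656 and 1.44 in muscle, the largest log2 difference between heart and muscle of the 10 genes (3.38 ± 0.52, adjusted p = 0.000416). Between heart and tongue, where it had 7.12, 10.5 and 6.66 CPM, Cd8b1 did not pass (adjusted p = 0.103). Cd4 had 26.1, 11.3 and 26.1 CPM in heart and 13.1, 15.9 and 13.2 in tongue, which overlapped (adjusted p = 0.203). Both tissues exceeded stomach (8.58, 6.53 and 4.54) and muscle (4.94, 2.90 and 3.90), with tongue above stomach by 1.13 ± 0.35 (stomach minus tongue −1.13, adjusted p = 0.0227), a call lost without untreated tongue replicate 2 or untreated stomach replicate 2 or 3 (adjusted p 0.0595 to 0.0714).

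Gzmb, Prf1 and Nkg7 were higher in both heart and tongue than in stomach and muscle. Gzmb measured 38.7, 21.3 and 39.4 CPM in untreated heart, 18.7, 27.5 and 13.1 in tongue, 4.34, 6.56 and 8.98 in muscle and 3.81, 7.21 and 4.80 in stomach. Every heart and tongue library lay above every muscle and stomach library (stomach minus tongue −1.93 ± 0.38, adjusted p = 0.00189), while heart and tongue did not differ by the test (adjusted p = 0.132). Prf1 had the same order, with 10.8, 4.55 and 7.87 CPM in heart, 3.65, 7.92 and 3.17 in tongue, 1.45, 1.03 and 0.848 in muscle and 0.554, 0.627 and 1.04 in stomach. Its stomach minus tongue difference of −2.72 ± 0.50 (adjusted p = 0.00118) was the largest of the 10 genes for that pair. Nkg7 measured 43.3, 26.2 and 42.0 CPM in heart, 15.9, 34.6 and 14.8 in tongue, 6.90, 7.31 and 8.14 in muscle and 8.51, 7.73 and 4.62 in stomach (stomach minus tongue −1.67 ± 0.36, adjusted p = 0.00300). Heart and tongue differed in Nkg7 only when untreated tongue replicate 2 was left out, alone (1.29, adjusted p = 0.0137) or with replicate 2 of every tissue. In all, 4 of 10 genes were lower in stomach than tongue (Cd4, Gzmb, Prf1 and Nkg7; 40.6% of all genes differed), and 0 were higher.

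Gzma did not share that pattern. It measured 16.3, 6.08 and 13.4 CPM in untreated heart, and the other 3 tissues overlapped at 4.22, 2.82 and 2.33 in tongue, 4.57, 2.19 and 2.51 in stomach and 2.21, 1.97 and 3.05 in muscle. The heart was higher than each of them (1.94 ± 0.44 against tongue, adjusted p = 0.00569), and tongue, stomach and muscle did not differ in Gzma by the test (adjusted p 0.568 to 0.941). The remaining pairs gave 3 of 10 genes higher in stomach than muscle (Cd3d, Cd8a and Cd8b1; 56.7% of all genes differed; 1 of them, Cd3d, without untreated muscle replicate 2) and 8 of 10 lower in muscle than tongue (all but Cd3e and Gzma; 43.3% of all genes differed).

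Levels per kb of exon divide by all annotated exons of a gene, 914 bases for Nkg7, 3269 for Cd3g and 4080 for Cd3e. The order of genes on this scale therefore depends on the annotation, and the length of the RNA present was not measured. On it, Nkg7 had the highest value of the 10 in untreated heart at 40.7 ± 10.4 CPM per kb (SD, n = 3), followed by Gzmb at 23.1 ± 7.13. Gzma (11.9 ± 5.24), Cd8b1 (11.2 ± 3.96), Cd3d (10.4 ± 2.03) and Cd8a (9.71 ± 2.63) lay within their SDs of each other. Cd3g (6.19 ± 2.76), Cd4 (5.25 ± 2.12), Cd3e (5.00 ± 1.86) and Prf1 (3.00 ± 1.21) were lower. In untreated stomach Nkg7 was again first at 7.61 ± 2.25, but Cd3d was next at 5.09 ± 0.48 followed by Gzmb at 3.67 ± 1.22.

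Other T cell and NK cell genes were also compared between untreated tissues, where the shares of all genes that differed from heart were 46.7% in stomach, 38.9% in muscle and 32.3% in tongue. Among T cell receptor and proximal signalling genes, 14 of 19 tested were higher in untreated heart than stomach, 17 of 19 than muscle and 10 of 19 than tongue, where 1 was lower. Trbc2, a T cell receptor β constant segment, averaged 39.8 ± 13.1 CPM in heart, 21.2 ± 8.71 in stomach, 20.2 ± 6.70 in tongue and 5.33 ± 2.25 in muscle (SD, n = 3), and Lcp2, an adaptor below the receptor, 39.0 ± 9.03, 7.79 ± 3.30, 14.4 ± 1.55 and 8.13 ± 0.80. Of 12 NK cell receptors tested, 7 were higher in heart than stomach, 8 than muscle and 3 than tongue, where 1 was lower. The shared interleukin 2 and 15 receptor chain Il2rb averaged 48.1 ± 16.2 CPM in heart and 8.21 ± 0.25 in stomach, and Klrk1, the activating receptor NKG2D, 12.9 ± 3.91 in heart, 13.04 ± 4.13 in tongue and 2.20 ± 0.71 in stomach. Of 10 further cytotoxic effectors, 3 were higher in heart than tongue, 8 than muscle, where 1 was lower, and 10 than stomach, among them the granzyme-activating protease Ctsc (136 ± 30.5 against 65.4 ± 10.3 CPM) and the chemokine Ccl5 (111 ± 25.3 against 21.5 ± 15.4). Of 12 T cell transcription factors, 7 were higher in heart than stomach, 7 than muscle, where 2 were lower, and 2 than tongue, where 2 were lower. Homing and survival receptors gave 8, 10 and 7 of 12 higher against stomach, muscle and tongue, and activation and inhibitory receptors 10, 10 and 2 of 12, with 1 lower against tongue. Genes of other cells differed as well. Macrophage and dendritic cell genes were higher in heart in 8 of 11 against stomach, 6 against muscle and 4 against tongue, B cell genes in 0, 7 and 8 of 8, and mast cell genes were lower in heart than stomach in 8 of 9. Of genes of leukocytes in general, 6 of 6, including Laptm5 and Coro1a, were higher in heart than in each of the other 3 tissues, and the part of these cells in the differences of the 10 genes was not tested.

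**Figure D2:**
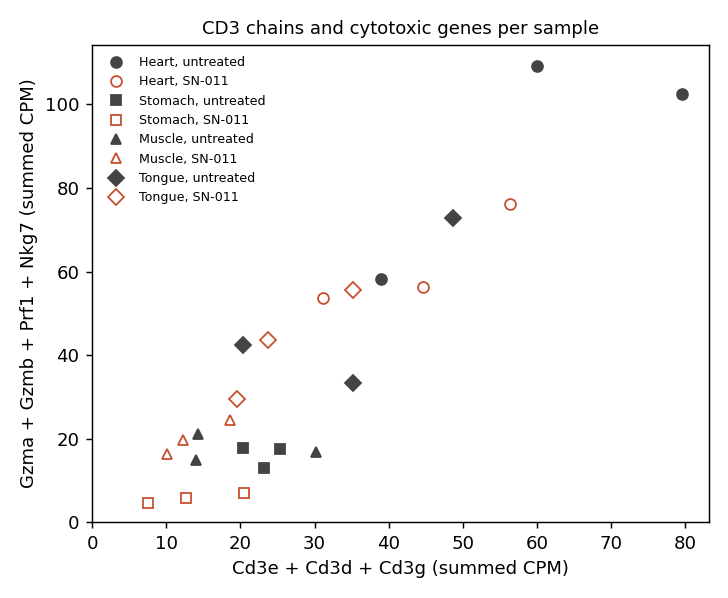
Summed CPM of the 3 CD3 genes (horizontal axis) against summed CPM of Gzma, Gzmb, Prf1 and Nkg7 (vertical axis) in each of the 24 libraries, by tissue (symbol) and treatment (filled, untreated; open, SN-011). Untreated heart reaches 109 CPM of cytotoxic genes, and the 3 SN-011 stomach libraries, at 4.65 to 6.94 CPM, are the lowest of all.

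With SN-011, 0 of the 10 genes passed the adjusted threshold in any tissue, so each direction below is given as values. The share of all genes called was 0.848% in heart, 0% in stomach, 0.0141% in muscle and 0% in tongue, so the member counts sit at or close to a background that was itself near 0. At an unadjusted p under 0.05, edgeR gave 2 of 10 of these genes in heart (22.4% of all genes), 4 of 9 tested in stomach (24.6%), 0 of 10 in muscle (14.8%) and 1 of 10 in tongue (12.5%), so the counts in heart and tongue were near the share of all genes. In stomach, 1 of the genes (Gzma) was called by DESeq2 (6.83% of all genes with a p-value) and by the exact test of edgeR (10.8%), and 3 (Gzma, Gzmb and Nkg7) when all 24 libraries were fitted together (13.9%). In tongue, 1 gene (Cd4) was called by DESeq2 (1.4% of all genes) and by the exact test (1.53%). These alternatives thus called far more of all genes than the analysis reported here.

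**Figure D3:**
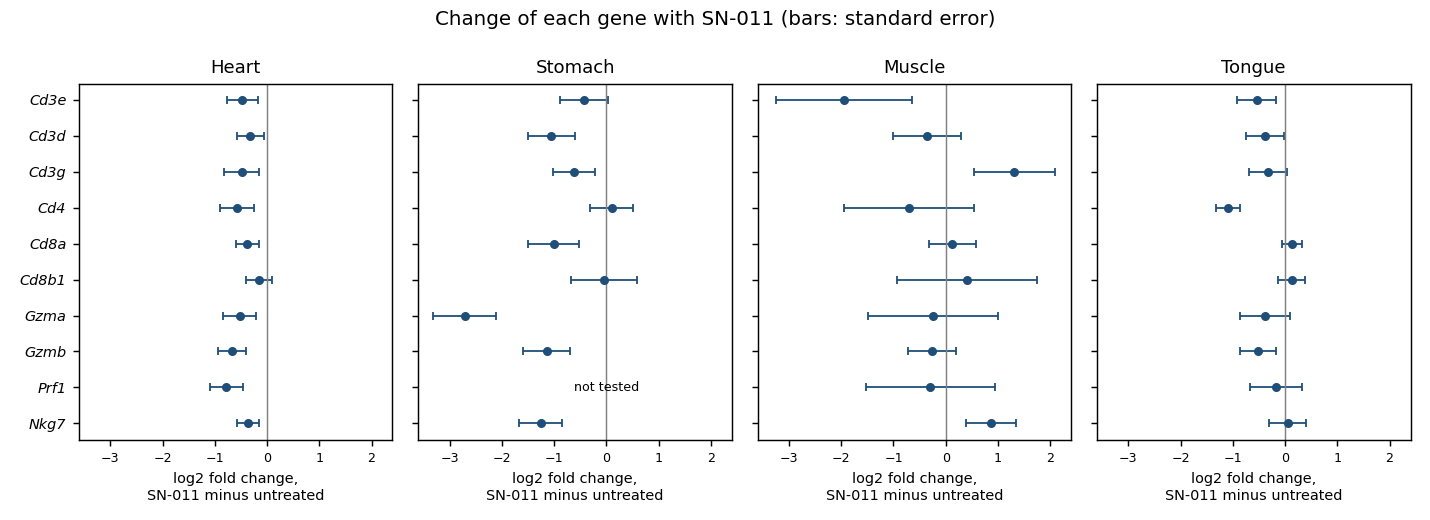
Log2 fold change of each gene, SN-011 minus untreated (horizontal axis), in the 4 tissues, with points at the estimate of edgeR and bars of 1 standard error; Prf1 did not pass the filter on low counts in stomach. All 10 points lie below 0 in heart, Gzma in stomach is the lowest of all at −2.72, and the widest bar is that of Cd8b1 in muscle (1.34).

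In the heart all 10 genes were lower on average with SN-011, with a median log2 fold change of −0.48 against −0.01 over the 16151 genes tested, and in each of the 10 the groups overlapped. Gzmb measured 42.8, 23.96 and 43.9 CPM without and 19.9, 17.8 and 31.9 with SN-011 (−0.67 ± 0.28 SE, adjusted p = 0.195). Prf1 measured 11.97, 5.11 and 8.77 CPM without and 3.90, 5.20 and 5.99 with SN-011 (−0.78 ± 0.32, adjusted p = 0.197). In both genes untreated replicate 2 was the library that overlapped the SN-011 group, and the other 2 untreated libraries lay above it.

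Heart Gzma measured 18.1, 6.84 and 14.9 CPM untreated and 9.94, 7.69 and 10.1 with SN-011 (−0.53 ± 0.32, adjusted p = 0.365), and passed at −0.83 (adjusted p = 0.0497) when untreated replicate 2, with its gastric transcripts, was left out (4.74% of all genes then passed). Over all such omissions of 1 library Gzma ran from −0.83 to −0.26. Cd3e then ran from −0.78 to −0.19, Cd3g from −0.77 to −0.14, Cd3d from −0.51 to −0.054 and Cd8a from −0.59 to −0.17. Without the filter on low counts Gzmb passed (−0.70, adjusted p = 0.00566), as did 6.23% of all genes. The log2 fold change of Cd4 was −0.57 ± 0.32, of Cd3g −0.48 ± 0.33, of Cd3e −0.48 ± 0.29, of Cd8a −0.38 ± 0.22, of Nkg7 −0.37 ± 0.20, of Cd3d −0.32 ± 0.26 and of Cd8b1 −0.15 ± 0.24, with adjusted p from 0.322 to 0.748. Genes of leukocytes in general were lower on average as well, 6 of 6 negative with a median of −0.54. B cell genes were negative in 8 of 8 with a median of −1.45, with 0 of 8 at an unadjusted p under 0.05 by edgeR. Their summed level was 65.3, 30.3 and 488.5 CPM without and 55.1, 191.4 and 14.0 CPM with SN-011, untreated replicate 3 standing far above the others. Summed mast cell genes, mostly Kit, were 10.4 to 13.05 CPM without and 5.26 to 5.68 CPM with SN-011. Macrophage and dendritic cell genes were negative in 8 of 11 with a median of −0.26, at a summed 1348 to 1761 CPM without and 1209 to 1821 CPM with SN-011. Heart identity genes were positive in 4 of 4 with a median of 0.43, Tnnt2 being higher in every SN-011 library (0.54, adjusted p = 0.155). The part of these cells in the values of the 10 genes was not tested.

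In the stomach, Gzma, Nkg7 and Gzmb had the most negative log2 fold changes of the 9 genes tested. Gzma measured 5.32, 2.62 and 3.10 CPM untreated (66, 42 and 58 counts) and 0.766, 0.396 and 0.491 CPM with SN-011 (13, 6 and 8 counts). The groups did not overlap, and the log2 fold change of −2.72 ± 0.60 was the largest of any of the 10 genes in any tissue (adjusted p = 0.0727; exact permutation p = 0.1, the smallest that 3 against 3 can give). It passed the adjusted threshold without the filter on low counts (adjusted p = 0.0254, with 4.98% of all genes called), with DESeq2 (0.00237), with the exact test of edgeR (0.00148) and in the fit of all 24 libraries (0.0207), and did not pass when any 1 library was left out (0.0809 to 0.294, with −3.02 to −2.39 as the log2 fold change).

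Nkg7 in stomach measured 9.92, 9.23 and 5.72 CPM untreated and 4.54, 2.77 and 3.07 with SN-011 (−1.26 ± 0.41, adjusted p = 0.124). Gzmb measured 4.44, 8.61 and 5.94 CPM untreated and 3.30, 1.98 and 3.32 with SN-011 (−1.14 ± 0.45, adjusted p = 0.167). Prf1 was too low to be tested, with 8, 12 and 24 counts untreated and 0, 8 and 2 with SN-011, the 0 and the 2 lying under the floor of 3 counts. In all 4 cytotoxic genes every SN-011 library was below every untreated library, and so was Cd3d at 10.3, 10.3 and 12.7 against 8.31, 2.70 and 5.04 CPM (−1.05 ± 0.44, adjusted p = 0.189). Of the 9 genes tested that makes 4, where 15.2% of the 17031 genes tested had every SN-011 library lower.

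The other stomach values did not move as one. The log2 fold change of Cd8a was −1.01 ± 0.49 (adjusted p = 0.240), that of Cd3g −0.62 ± 0.40 (adjusted p = 0.376) and that of Cd3e −0.43 ± 0.46 (adjusted p = 0.592). Cd8b1 at −0.05 ± 0.64 and Cd4 at 0.10 ± 0.42 had errors wider than their values. SN-011 replicate 1 had the highest level of the treated group for Cd3e, Cd3d, Cd3g, Cd4, Cd8a and Cd8b1, lying within or above the untreated range in all of these but Cd3d.

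Relative to the CD3 chain gene Cd3g, Gzma also stood lower within the stomach libraries. Its ratio to Cd3g per kb of exon was 1.68, 1.22 and 1.06 untreated and 0.300, 0.348 and 0.292 with SN-011. No other tissue showed such a separation, the ratio being 1.499 to 2.57 untreated and 1.48 to 2.91 with SN-011 in heart. This ratio was chosen after the values were seen and is a description.

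Genes of other cells also moved in the same stomach libraries. The 4 gastric genes were all negative with a median of −1.09, and Atp4a, of the acid pump, was 3120, 3319 and 3391 CPM untreated and 1097, 2309 and 1617 with SN-011, without overlap (−0.97, adjusted p = 0.231). The squamous keratins Krt13 (2.21, adjusted p = 0.0621) and Krt4 (1.87, adjusted p = 0.0758) were higher in every SN-011 library, with the summed level of 4 keratin genes at 26.6 to 75.3 CPM untreated and 177 to 283 CPM with SN-011. B cell genes were negative in 7 of 8 with a median of −0.75, at a summed 130.3 to 281.6 CPM untreated and 120.6 to 225.6 CPM with SN-011. Mast cell genes were mostly negative as well. Of 8 mast cell genes tested, 7 were negative with a median of −1.56, and the summed level of the 9 was 97.6 to 120 CPM untreated and 53.2 to 62.9 CPM with SN-011, with 0 of 9 at 0 in either group. The mucosal mast cell protease Mcpt1 had 382, 609 and 367 counts untreated and 11, 58 and 55 with SN-011 (−3.49 ± 0.60, adjusted p = 0.0621), whereas Kit, also transcribed in gastric pacemaker cells, was 0.79 ± 0.33 (adjusted p = 0.190). NK receptors gave no such shift, with 5 of 8 negative, a median of −0.25, and Ncr1 at 0, 5 and 2 counts untreated and 8, 0 and 2 with SN-011. The part of mast cells, of B cells and of gastric and squamous epithelium in the values of the 10 genes was not tested.

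In muscle the sparse library differed from its replicates in most of the 10 genes. It had 0 counts of Cd3e, Cd4, Cd8b1, Gzma and Prf1, but 149 counts of Cd3g against 41 and 41 in its replicates, and 172 of Nkg7 against 74 and 103. The fold changes were accordingly imprecise, from −1.95 ± 1.31 for Cd3e to 1.31 ± 0.78 for Cd3g, with adjusted p from 0.468 to 0.930 and 6 of 10 negative. With 1 library left out, these 2 values ran from −2.45 to −0.98 for Cd3e and from 0.12 to 1.70 for Cd3g. Cd8a was the steadiest of the 10, at 2.85, 2.21 and 3.48 CPM untreated and 2.79, 2.94 and 3.57 with SN-011 (0.12 ± 0.45). Only Cd3e had every SN-011 library below every untreated library (19.8% of the 14198 genes tested did), and its values of 4.59, 15.5 and 3.23 CPM untreated and 2.79, 0 and 3.18 with SN-011 include both libraries described above. Skeletal muscle identity genes were positive in 4 of 4 with a median of 0.34, 3 of them without overlap, and their part was not tested. Without the sparse library Gzma was 0.32 and Prf1 0.27, against −0.25 and −0.29 with it, and neither passed in either analysis.

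In the tongue Cd4 stood apart from the other 9 genes. Cd4 measured 15.7, 18.6 and 15.6 CPM untreated and 10.3, 6.21 and 6.91 with SN-011, without overlap. The log2 fold change was −1.09 ± 0.23 (adjusted p = 0.263), and it passed with DESeq2 (adjusted p = 0.00968), with the exact test of edgeR (0.0242) and without the female untreated replicate 1 (0.0272, with 12.5% of all genes called). Over all the alternatives the adjusted p ran from 0.00968 to 0.790 and the fold change from −1.34 to −0.95. It was the only one of the 10 genes with every SN-011 library lower, where 8.38% of the 16587 genes tested were.

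The CD8 chains were level in the same libraries. Cd8a measured 13.3, 17.5 and 14.99 CPM untreated and 19.7, 14.0 and 16.5 with SN-011 (0.13 ± 0.19), and Cd8b1 was 0.13 ± 0.26. The CD3 chains lay between, at −0.55 ± 0.38 for Cd3e, −0.38 ± 0.37 for Cd3d and −0.33 ± 0.36 for Cd3g. Of the cytotoxic genes, Gzmb was −0.52 ± 0.34, Gzma −0.38 ± 0.48, Prf1 −0.18 ± 0.50 and Nkg7 0.05 ± 0.35, and in these 9 genes the groups overlapped (adjusted p 0.539 to 0.963). For Gzmb, Prf1, Nkg7 and the CD3 chains, untreated replicate 2 was the highest of the 6 tongue libraries. Macrophage and dendritic cell genes, which include another source of Cd4, were negative in 7 of 11 with a median of −0.13, C1qa being 0.04 ± 0.33, and their summed level was 572 to 1417 CPM untreated and 795 to 1025 with SN-011. Mast cell genes were negative in 4 of 4 tested with a median of −1.77, at a summed 18.9 to 49.3 CPM untreated and 9.65 to 13.55 CPM with SN-011, and the 4 tongue keratins were negative in 4 of 4 with a median of −1.27. The summed keratin level was 5687, 32180 and 47210 CPM untreated, replicate 1 standing apart, and 7975 to 15890 with SN-011. B cell genes, at a summed 4.855 to 9.997 CPM untreated and 1.31 to 5.49 with SN-011, were also negative in 4 of 4 tested with a median of −1.24. The part of these groups in the Cd4 values was not tested.

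**Figure D4:**
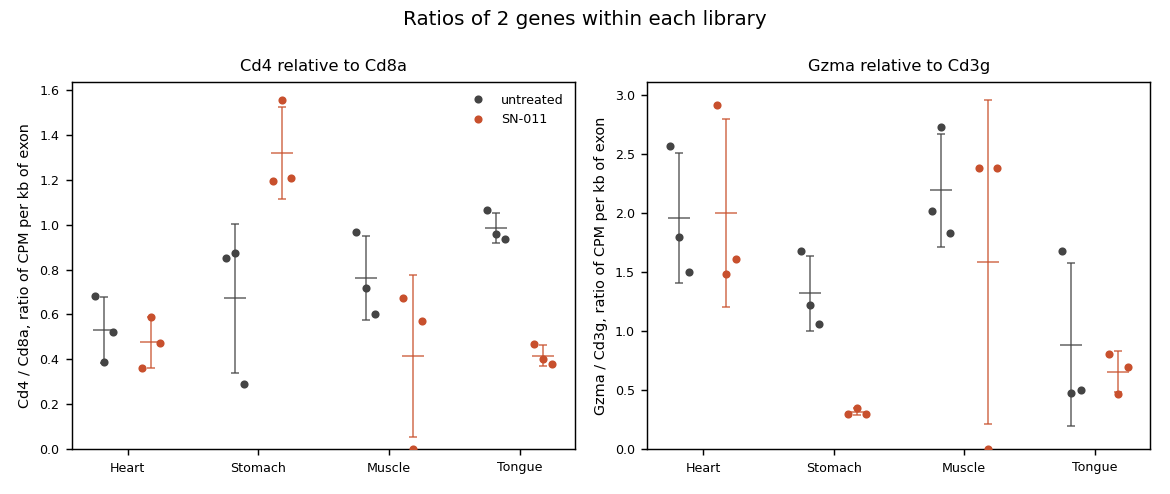
Ratio of Cd4 to Cd8a (left) and of Gzma to Cd3g (right) within each library, both as CPM per kb of exon, by tissue and treatment. Points are libraries, and bars with whiskers the mean and SD of 3, the lower whisker ending at 0 at most; the SN-011 tongue libraries lie at 0.378 to 0.470 on the left, below all untreated tongue libraries, and the SN-011 stomach libraries at 0.292 to 0.348 on the right.

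The balance of Cd4 to Cd8a, a ratio within a library, was examined after these values were seen. In tongue it was 1.06, 0.959 and 0.936 untreated and 0.470, 0.401 and 0.378 with SN-011. In stomach it was 0.854, 0.874 and 0.289 untreated and 1.20, 1.56 and 1.21 with SN-011, in the opposite direction and again without overlap. In heart the groups overlapped at 0.681, 0.390 and 0.520 against 0.361, 0.590 and 0.474. In muscle, with 0.969, 0.717 and 0.601 untreated and 0.671, 0 and 0.573 with SN-011, they overlapped as well.

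Whether the SN-011 change differed between tissues was tested for each pair of tissues in a fit of all 24 libraries. Of the 10 genes, 1 passed for stomach against muscle (6.95% of all 19731 genes tested passed) and 0 for the other 5 pairs, for which 2.01% (heart and stomach), 0.00507% (heart and muscle), 0% (heart and tongue), 0.821% (stomach and tongue) and 0.0355% (muscle and tongue) of all genes passed. At an unadjusted p under 0.05 those pairs gave 1, 2, 0, 3 and 0 of the 10 genes, beside 17%, 6.6%, 2.83%, 15.4% and 8.1% of all genes, and stomach against muscle gave 4 of 10 beside 24.1%. DESeq2 called 0 of the 10 in each of the 5 pairs. The gene was Nkg7, whose change in stomach minus that in muscle was −2.01 ± 0.53 (adjusted p = 0.0275). The value rests in part on the sparse muscle library, and without it was −1.53 (adjusted p = 0.0574). For Gzma the change in stomach differed from that in heart by 2.22 ± 0.99 (heart minus stomach, adjusted p = 0.256), from that in muscle by −2.49 ± 1.03 (adjusted p = 0.140) and from that in tongue by −2.38 ± 1.00 (stomach minus tongue, adjusted p = 0.251). Without the sparse muscle library these became 2.22, −3.06 and −2.38, with adjusted p of 0.0417, 0.0119 and 0.0426, while 5.72%, 8.19% and 3.96% of all genes passed. In stomach minus muscle, Cd3g (−1.78 ± 0.74, adjusted p = 0.143) and Cd8a (−1.08 ± 0.50, adjusted p = 0.191) also had an unadjusted p under 0.05, as did Cd8a (−1.17 ± 0.49, adjusted p = 0.239) and Nkg7 (−1.34 ± 0.52, adjusted p = 0.203) in stomach minus tongue, and Cd3g (−1.61 ± 0.73, adjusted p = 0.739) and Nkg7 (−1.09 ± 0.51, adjusted p = 0.754) in heart minus muscle. For Cd3e, Cd3d, Cd4, Cd8b1, Gzmb and Prf1 the unadjusted p was 0.114 to 0.992 over the 6 pairs. The changes in different tissues may come from the same mice and are not independent of one another.

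As lists, the other lymphocyte genes were mostly negative with SN-011 in heart: 17 of 19 T cell receptor and signalling genes (median −0.43), 11 of 12 NK receptors (−0.57), 8 of 10 further cytotoxic effectors (−0.43), 10 of 12 homing and survival receptors (−0.48), 11 of 12 T cell transcription factors (−0.38) and 11 of 12 activation and inhibitory receptors (−0.17), beside 51.4% of all genes. In stomach, the median of the T cell receptor and signalling genes was −0.31 (12 of 18 negative) and that of homing and survival receptors −0.42 (7 of 12). NK receptors gave −0.25 (5 of 8), further cytotoxic effectors −0.17 (6 of 8), activation and inhibitory receptors −0.16 (7 of 12) and transcription factors 0.28 (4 of 11). The −1.01 of the 10 genes was thus the lowest of these lists there. In tongue the medians of the 6 lists were −0.35 (homing and survival receptors, 11 of 12 negative) to 0.04 (further cytotoxic effectors, 4 of 9). Muscle gave −0.66 (transcription factors, 6 of 7) to 0.49 (further cytotoxic effectors, 1 of 5).

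**Figure D5:**
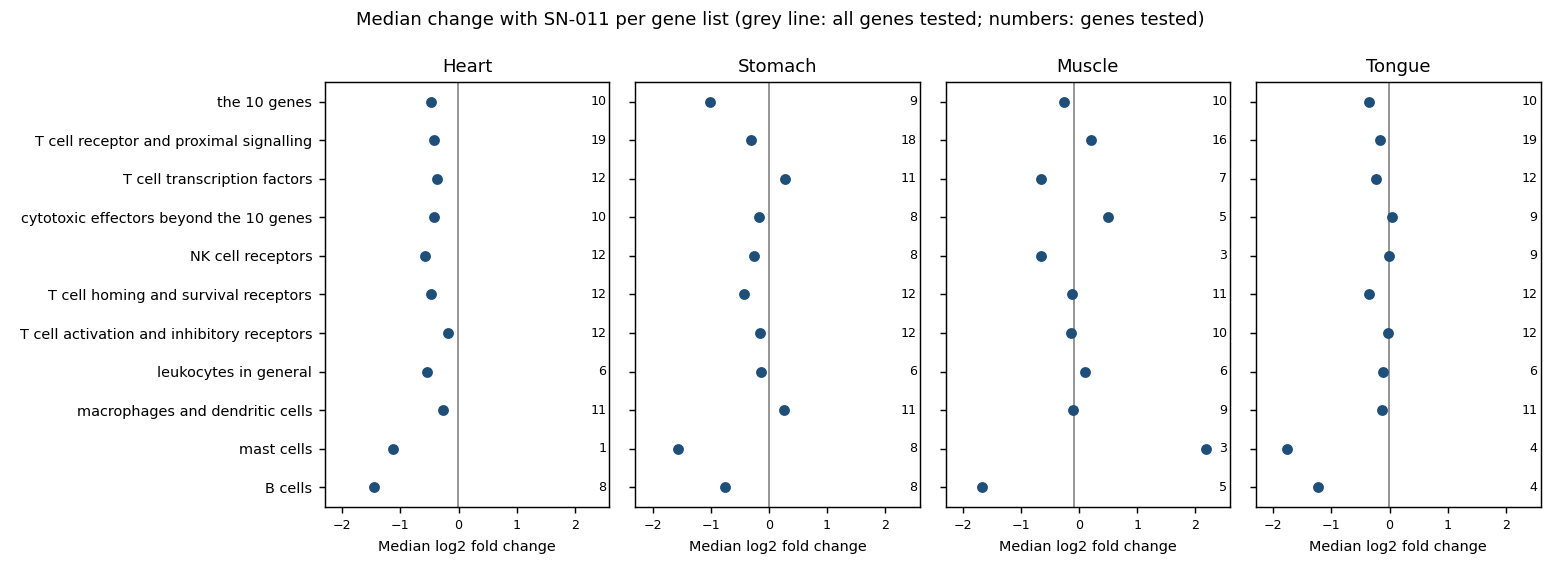
Median log2 fold change, SN-011 minus untreated (horizontal axis), of the 10 genes and of 10 other gene lists in the 4 tissues, with the median over all genes tested as a grey line and the number of genes tested at the right of each row. In heart the 10 genes and all 10 other lists lie below the line, those of macrophages, mast cells and B cells included. In stomach the 10 genes (−1.01) and mast cell genes (−1.56) lie farthest below it.

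The most abundant genes of these lists gave few shifts. The log2 fold change of Trbc2 was −0.50 ± 0.24 in heart and 0.04 ± 0.30 in tongue, that of Lcp2 −0.59 ± 0.18 in heart, and that of Il2rg, the common cytokine receptor γ chain, −0.53 ± 0.22 in heart and −0.51 ± 0.29 in tongue. Il2rb (−0.39 ± 0.24), Klrk1 (−0.76 ± 0.25), S1pr1, which guides lymphocyte exit (0.02 ± 0.21), Cd44 (−0.18 ± 0.22) and Lag3, an inhibitory receptor (−0.12 ± 0.25), did not pass in heart either, nor did Satb1 in any tissue. Ccl5 was level in all 4 tissues, from −0.12 ± 0.57 in stomach to 0.25 ± 0.30 in muscle. Ncr1, the NK receptor NKp46, named here after its values were seen, had 19, 10 and 33 counts in untreated heart and 4, 2 and 3 with SN-011, without overlap (−2.53 ± 0.58, adjusted p = 0.0754). Ctsc, which encodes cathepsin C and activates granzymes, was lower in all 4 tissues without passing. Its mean was 151 ± 33.1 CPM untreated and 96.9 ± 14.6 with SN-011 in heart, 78.7 ± 14.8 and 46.7 ± 9.94 in stomach, 46.3 ± 8.65 and 30.8 ± 4.43 in muscle, and 88.6 ± 7.69 and 55.1 ± 8.40 in tongue (SD, n = 3). In each tissue every SN-011 library was below every untreated library, with log2 fold changes of −0.64, −0.75, −0.59 and −0.68 and adjusted p of 0.104, 0.133, 0.259 and 0.263. Of all genes tested, 13.1% in heart, 15.2% in stomach, 19.8% in muscle and 8.38% in tongue had every SN-011 library lower. The part of other cells in the Ctsc values was not tested.

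Over the 24 libraries, the genes outside these lists whose levels ranked most like the mean log2 level of the 3 CD3 genes were Cd74, the invariant chain of MHC class II (Spearman rho 0.925), Nfkbie (0.922), the T cell adaptor Grap2 (0.917), Plcb2 (0.912), H2-T23 (0.911), Slfn1 (0.910), Dnase1l3 (0.909), Rab8b (0.909), the interferon-induced Xaf1 (0.905) and Rcn1 (0.903). The median rho over 19731 genes was 0.0749. The points share tissue, and after each group's mean was removed Pearson's r over the same libraries ran from 0.131 (Xaf1) to 0.736 (Dnase1l3).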

How the data were processed

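RNA-Seq of 24 tissue libraries of Trex1-KO mice was analysed. For each sample the authors deposited 1 table of genes with the unnormalized count of each. Their methods name Trimmomatic, hisat2 and featureCounts with uniquely mapped pairs, whereas the submitters' processing notes name HISAT2, HTSeq and mm10. Whether counting used strand is not given in the sources used here. Of 54532 identifiers, 54495 were in GENCODE M21 (GRCm38), which gave symbols, positions and exon lengths. The labels name no batch.

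Groups came from the labels. SN-011 was compared with untreated within a tissue by the quasi-likelihood test of edgeR 4.0.16 under R 4.3.3, after TMM scaling. Genes had to pass filterByExpr at a count of 10 and a total of 15, and fold changes carry a prior count of 0.125. The 12 untreated libraries were fitted together to compare tissues, and all 24 to compare changes between tissues. Values of SN-011 comparisons are CPM scaled within a tissue, and levels between tissues are CPM scaled over all 24 libraries, on which muscle reads higher. Adjustment followed Benjamini-Hochberg across every gene tested (threshold 0.05), and single genes were compared by the two-sided exact permutation test of 3 against 3. Alternatives were DESeq2 1.42.0, its size factors, no filter, the exact test of edgeR, a joint fit, a replicate block and leaving out each library. Total counts per sample set a floor of 3 counts, for counting error only. Replicates of a group all differed by more than counting noise (chi-square per degree of freedom 6.02 to 235). Where nothing says that they came from separate mice, p-values measure the spread between these samples. The fits were tested on simulated data, from which no result given here is drawn. Tables and plots were made in Python 3.11.15 (scipy 1.17.1, matplotlib 3.10.9).

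All 10 genes were taken in every comparison, and those not given by value are counted or given by range. From each further list, up to 3 genes past the threshold are named per SN-011 comparison, or otherwise the 2 with the highest mean CPM. A result for 1 gene of these lists is not reported here. Correlations used log2 of CPM plus 0.5. The genes and lists were chosen with earlier results of these data known, and others are named after their values were seen.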

Additional observations from a re-analysis of the deposited data

Results flagged for a closer look

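The SN-011 change of Nkg7 in stomach minus that in muscle, −2.01 on the log2 scale (adjusted p = 0.0275, edgeR interaction contrast), was the only one of the tissue differences of the 10 genes to pass. That is 1 of 10 genes where 6.95% of all genes passed for this pair, and the call was lost with the replicate number as a block (adjusted p = 0.0519). Nkg7 was lower in 3 of 3 SN-011 stomach libraries than in any untreated one, and in muscle it was 4.28, 4.41 and 4.84 CPM untreated and 4.80, 14.0 and 5.84 with SN-011, the highest being the sparse library. The adjusted p over the alternatives was 0.00643 to 0.1. It missed the threshold when untreated muscle replicate 1, 2 or 3, SN-011 muscle replicate 2, untreated stomach replicate 1 or 2 or SN-011 stomach replicate 3 was left out, at −2.08 to −1.53.

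The ratio of Cd4 to Cd8a per kb of exon moved in opposite directions with SN-011 in stomach and tongue, every library of each SN-011 group lying beyond its untreated group. The mean with SN-011 was 1.96 times the untreated mean in stomach and 0.422 times in tongue. The untreated stomach ratios were 0.854, 0.874 and 0.289, so 1 library lowered that mean. In stomach the log2 fold change of Cd4 was 0.10 and that of Cd8a −1.01 (adjusted p = 0.240, edgeR), neither passing. The difference between the tissues was not tested.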

How the results depend on the processing

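Counts of the 10 genes called with SN-011, 0 in every tissue as reported, became 1 in heart without the filter on low counts (Gzmb), 1 in stomach without the filter, with DESeq2 and with the exact test, 3 in stomach in the joint fit, and 1 in tongue with DESeq2 and with the exact test. Leaving out 1 library gave 0 to 1 in heart, 0 to 1 in tongue and 0 in stomach and muscle. Between untreated tissues, the count was 0 for heart against tongue and 3 for muscle against tongue when SN-011 libraries replaced untreated ones, and 4 for muscle against tongue without untreated replicate 2 in every tissue, an alternative added after seeing the data, as was leaving out replicate 1 in every tissue. The share of all genes called in these alternatives is not given here. Leaving out 1 library gave 1 to 5 for stomach against muscle (1 without untreated muscle replicate 2, 5 without untreated heart replicate 2). For the difference of changes, leaving out 1 library gave 0 to 1 for heart and stomach, for stomach and tongue (1 in both without the sparse muscle library) and for stomach and muscle, and the last was 0 without replicate 1 in every tissue.

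Within a tissue, same-numbered libraries did not deviate together (mean r −0.308 in tongue to 0.0650 in stomach), so the numbers were not taken as pairs there. Whether same-numbered libraries of different tissues came from 1 mouse was not tested. Untreated replicate 1 had the Xist counts of female tissue in every tissue. The comparisons between untreated tissues carried no term for the mouse and treat their libraries as independent. With the replicate block 0 of the 10 genes were called with SN-011 in each tissue, 0 for the difference of changes (Nkg7 in stomach against muscle −1.97, adjusted p = 0.0519), and 242, 181, 0 and 0 genes in all in heart, stomach, muscle and tongue. Over the other alternatives the genes called in all, 137, 0, 2 and 0 as reported, were 1 to 1888, 0 to 2738, 0 to 1103 and 0 to 2135.

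Some signs turned. With SN-011, leaving out 1 library gave −0.40 to 0.042 for Cd8b1 in heart, −0.23 to 0.34 for Cd4 and −0.77 to 0.37 for Cd8b1 in stomach, −0.041 to 0.28 for Cd8a, −0.089 to 0.98 for Cd8b1, −0.76 to 0.32 for Gzma and −0.87 to 0.27 for Prf1 in muscle, and −0.62 to 0.0074 for Cd3d, −0.00079 to 0.24 for Cd8a, −0.00094 to 0.34 for Cd8b1, −0.55 to 0.33 for Prf1 and −0.17 to 0.54 for Nkg7 in tongue. Cd8b1 in muscle was −0.37 with the replicate block. Between untreated tissues, SN-011 libraries in their place gave, for stomach minus muscle, 0.46 for Cd3e, −0.80 for Cd3g and −2.13 for Gzma, 0.054 for Cd4 in stomach minus tongue and −1.07 for Cd3e in muscle minus tongue. Without replicate 1 in every tissue Gzma was −0.17 in stomach minus muscle and 0.012 in muscle minus tongue. Without replicate 2 in every tissue Cd3e was 0.11 in stomach minus muscle and −0.44 in muscle minus tongue, and in stomach minus tongue Cd3d was 0.33, Cd8a 0.014 and Gzma 0.14. Gzma in stomach minus tongue was 0.020 with DESeq2 size factors, 0.00653 without the filter and 0.018 with DESeq2. Leaving out 1 library gave −0.11 to 0.48 for Gzma and −0.35 to 0.055 for Nkg7 in stomach minus muscle, −0.41 to 0.20 for Cd3d and −0.45 to 0.22 for Gzma in stomach minus tongue, and −0.62 to 0.74 for Cd3e in muscle minus tongue. The causes were not tested.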
